A study of Drosophila melanogaster with 2 samples.

Results

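In wandering larvae of the third instar of Drosophila melanogaster, 398 of the 1117 nuclear peaks in the optimal list of a chromatin immunoprecipitation (ChIP-seq) of tagged Mondo had their summit beside the promoter of a single gene. A peak was kept when the start sites (TSSs) of the protein-coding transcripts of exactly 1 gene lay within 500 bp of its summit in the dm6 build, after the 29 peaks on the mitochondrial chromosome had been set aside from the 1146 deposited. The other nuclear peaks were 239 with TSSs of several genes in reach, called shared promoters here, and 480 with none, called distal. The study has 1 group, with no second genotype, treatment or time: a transgenic line in which green fluorescent protein is joined to the C-terminal end of Mio, an older name of Mondo, with the animals of both sexes pooled. Chromatin was sonicated and precipitated with an antibody against the tag. Both biological replicates, numbered 5 and 1 in the labels, come from that line, and the labels give neither the promoter that drives the transgene nor the animals' age. Whole animals were used, so a peak sums over all tissues, and a site bound strongly in few cells cannot be told apart from one bound weakly in many.

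Mondo belongs to the basic helix-loop-helix family with a leucine zipper and is related to MondoA and ChREBP, which respond to glucose in vertebrates. With its partner Mlx it binds DNA at elements built from E-boxes, whose best known form is CACGTG, and it is known for switching on genes of sugar breakdown and fat synthesis when animals eat sugar. The promoters of genes that stand alone are of use here because a summit beside them has only 1 candidate coding gene and 1 direction of transcription, so its side can be read. Several words are known from fly promoters: TATCGATA is the core of the DNA replication-related element bound by DREF, GGTCACAC lies in the Motif 1 family of housekeeping promoters, TATAAA is the TATA box, and GAGAG is bound by the GAGA factor.

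The following sequences, from the RefSeq Release 6 genome, show what lies at the strongest summits and where the short words stand. Each is written on the strand of its gene. In the first set, for the strongest peaks with the summit upstream of the nearest start and no annotated exon in the printed stretch, the 11 capitals are centred on the summit, and the stretch is cut at the base before the TSS when the TSS lies within 50 bp. The summits at Ugalt and CG14100 lie outside the gene, and those at larp and ph-p in an intron of it, upstream of an inner start.
Ugalt (chrX:2703853-2703936, minus strand): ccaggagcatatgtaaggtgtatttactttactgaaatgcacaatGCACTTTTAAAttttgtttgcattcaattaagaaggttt
CG14100 (chr3L:19590581-19590681, minus strand): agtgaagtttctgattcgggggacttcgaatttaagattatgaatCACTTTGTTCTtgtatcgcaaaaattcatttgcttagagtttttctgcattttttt
larp (chr3R:28326516-28326616, minus strand): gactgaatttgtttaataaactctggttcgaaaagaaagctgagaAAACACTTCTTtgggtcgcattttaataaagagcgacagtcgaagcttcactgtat
ph-p (chrX:2137283-2137383, minus strand): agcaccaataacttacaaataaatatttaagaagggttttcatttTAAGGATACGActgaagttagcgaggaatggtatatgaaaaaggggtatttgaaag

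In the next set, chosen because they hold TATCGATA or CACGTG, the stretch runs from 50 bp upstream of the summit to the base before the TSS, and the capitals are the word.
eEF1gamma (chr3R:29220106-29220171, plus strand): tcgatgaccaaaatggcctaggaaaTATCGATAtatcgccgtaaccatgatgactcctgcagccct
RpS12 (chr3L:13023288-13023351, plus strand): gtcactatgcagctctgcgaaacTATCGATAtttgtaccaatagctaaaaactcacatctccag
RpL24 (chr2L:13395132-13395196, minus strand): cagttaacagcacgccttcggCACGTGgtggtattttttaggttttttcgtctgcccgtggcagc
Pdp1 (chr3L:7867370-7867605, minus strand): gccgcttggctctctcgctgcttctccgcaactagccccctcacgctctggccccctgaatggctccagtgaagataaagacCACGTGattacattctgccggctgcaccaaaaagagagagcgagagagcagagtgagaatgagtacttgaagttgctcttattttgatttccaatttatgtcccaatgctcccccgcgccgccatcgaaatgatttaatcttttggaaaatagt
E23 (chr2L:3354830-3355050, minus strand): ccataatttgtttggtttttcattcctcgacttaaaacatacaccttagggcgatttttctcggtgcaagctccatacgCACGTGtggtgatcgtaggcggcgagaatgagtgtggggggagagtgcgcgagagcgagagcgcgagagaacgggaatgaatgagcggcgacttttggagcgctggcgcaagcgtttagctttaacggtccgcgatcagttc
In eEF1gamma, which encodes a subunit of the elongation factor 1 complex, and in RpS12, a protein of the small ribosomal subunit, TATCGATA begins 41 bp upstream of the TSS in both. In RpL24, of the large subunit, CACGTG begins 44 bp upstream. In Pdp1, which encodes a PAR-domain bZIP activator of the circadian clock, and in E23, which encodes an ABC transporter induced by ecdysone, it begins 154 bp and 142 bp upstream.

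The last set holds ACACTG or ACAGTG, in capitals on either strand, within 50 bp of the summit. These were chosen for print after the counts of these words had been seen.
Pi3K21B (chr2L:297816-297879, plus strand): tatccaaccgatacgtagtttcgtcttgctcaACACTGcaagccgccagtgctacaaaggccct
CG13921 (chr3L:1746766-1746866, plus strand): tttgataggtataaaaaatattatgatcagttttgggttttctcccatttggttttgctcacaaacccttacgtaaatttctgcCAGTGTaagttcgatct
aru (chr2L:866041-866141, minus strand): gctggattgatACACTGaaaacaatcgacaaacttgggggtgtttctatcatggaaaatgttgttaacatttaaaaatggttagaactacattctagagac
Pi3K21B encodes the regulatory subunit of phosphoinositide 3-kinase, and aru encodes an adaptor protein related to Eps8.

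Most summits lay on the upstream side. Of the 398 peaks, 335 had the summit upstream of the nearest TSS of the gene, a share of 84.2% (95% Wilson interval 80.3 to 87.4%; intervals cover the counting of peaks or genes alone, and the read depth of the libraries is unknown). The share was 82.0% (76.6 to 86.4%) at the 239 shared-promoter peaks, where the nearest TSS sets the side, and 59.6% (58.3 to 60.8%) at 5745 peaks of the relaxed pooled list that met the same 1-gene rule but were outside the optimal list. The relaxed pooled list holds 28389 nuclear peaks and is labelled as peaks and background, so part of the 5745 may not be bound sites. No test was made of these differences, since there is 1 group of 2 libraries and peaks are not replicates. The intervals of the single-gene and shared shares overlap, and that of the relaxed peaks lies below both.

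The median position was 124 bp upstream, with quartiles at 209 bp and 34 bp upstream, and the median distance regardless of side was 145.5 bp. At shared promoters the median position was 64 bp upstream and the median distance 69 bp. A summit with 2 starts in reach has more chances to be near one, and the part of this in the difference was not tested. Within 50 bp of the TSS lay 17.8% of single-gene summits and 36.8% of shared ones, whereas 43.7% and 51.5% lay between 50 and 200 bp upstream. The fullest 100 bp stretch, from 200 to 100 bp upstream, held 116 of the 398 summits. Downstream, 18 summits lay in the first 50 bp and 14 in the next, and the 4 stretches of 100 bp beyond them held 7 to 9 each. The peaks nearest to the 500 bp limit show what it divides: aru and pAbp were kept with a summit 500 bp downstream and signals of 134.9 and 131.3, and lola with one 500 bp upstream and a signal of 97.0. Just outside it, summits 504 bp from Cyp310a1, 508 bp from Eip63F-1 and 508 bp from a gene on 3R had signals of 83.8, 129.3 and 113.0.

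**Figure D1:**
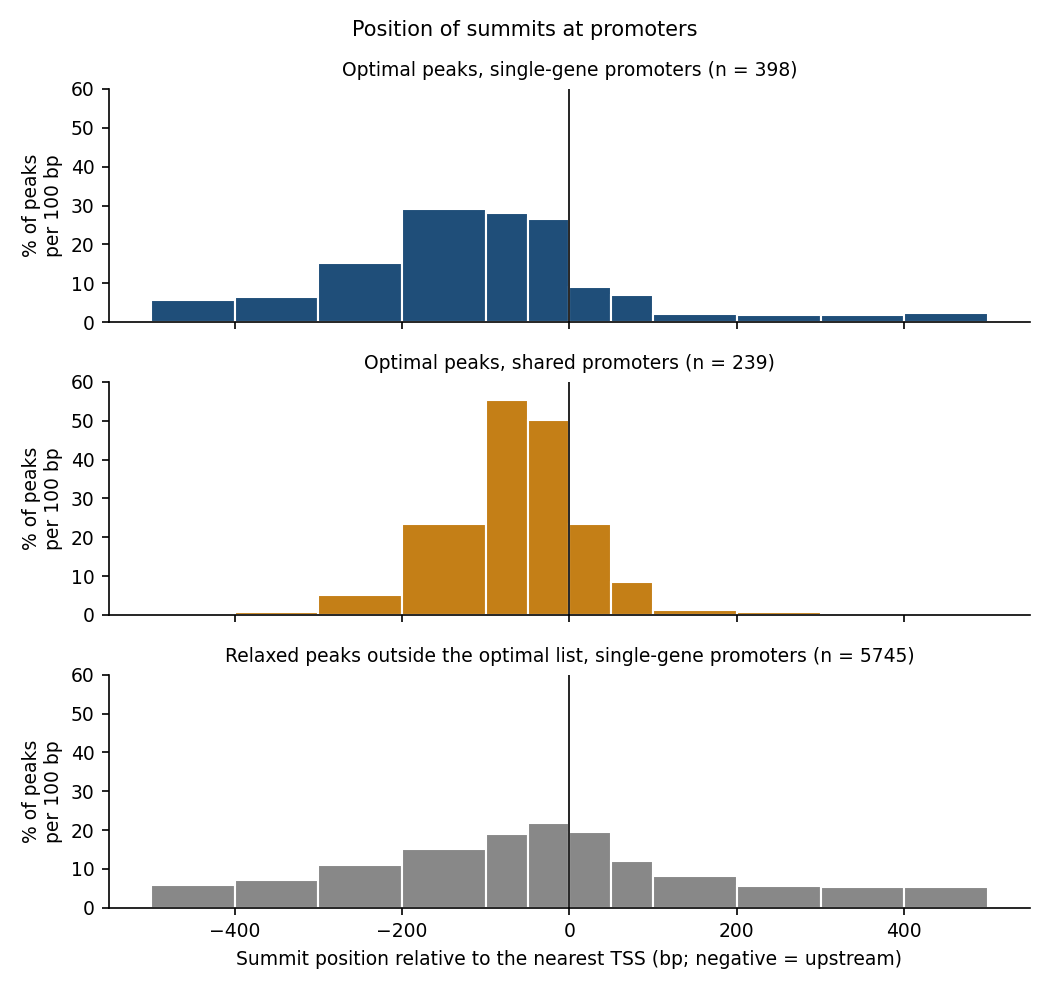
Share of summits per 100 bp (vertical axis, %) against the position of the summit relative to the nearest protein-coding TSS (horizontal axis, bp, negative upstream) for 398 optimal single-gene peaks, 239 optimal shared-promoter peaks and 5745 relaxed single-gene peaks outside the optimal list. The single-gene peaks are densest from 200 to 0 bp upstream, with a tail further upstream (15.3% from 300 to 200 bp) and a low downstream flank. The shared ones crowd within 100 bp, and the relaxed ones have more of their summits downstream, with 59.6% upstream.

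The upstream share was higher in the stronger classes of signal, a difference that was not tested. The deposited signal is the authors' own value for each peak, on a scale not given in the sources used here, and is used only within a list. Split by signal into 4 classes of 99 or 100 peaks, 90.0% of the strongest class, 87.0% of the next, and 79.8% of each of the last 2 had the summit upstream. No intervals were computed for these 4 shares. Relative to the TSS, with upstream negative, the median position was -148.5 bp in the strongest class, -128.5 bp and -98 bp in the middle ones and -82 bp in the weakest. The relaxed single-gene peaks showed the same order at lower signal: in 6 classes, their upstream share went from 68.9% (65.9 to 71.7%) in the strongest to 52.5% (49.3 to 55.6%) in the weakest. The 63 downstream summits lay at a median of 97 bp, and their median signal was 91.5, that of the 335 upstream ones 102.1. The strongest of them was at GstE13, a glutathione S-transferase of the epsilon class, 52 bp downstream with a signal of 258.7.

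**Figure D2:**
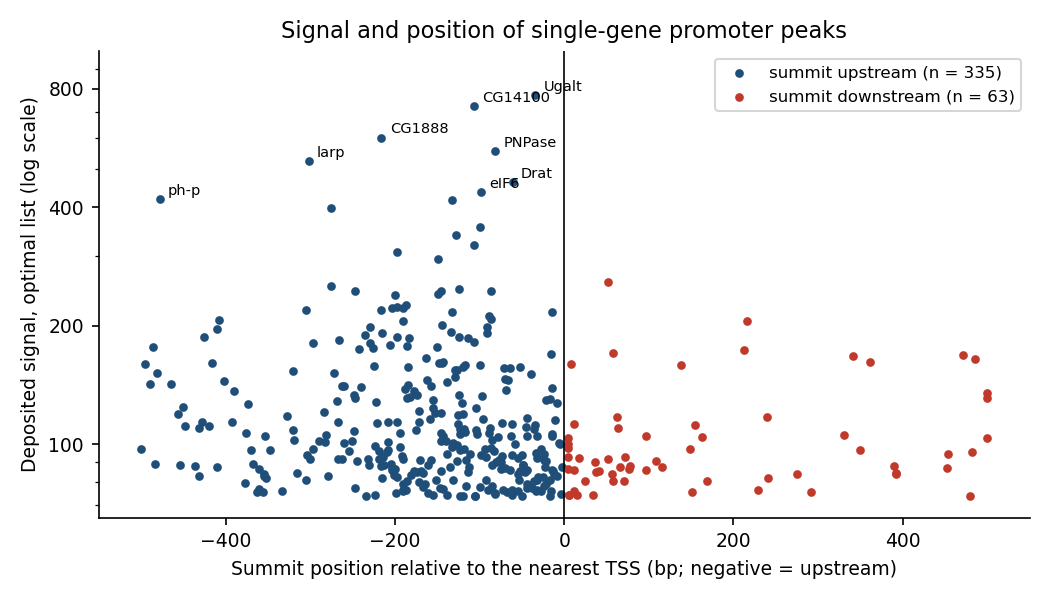
Deposited signal in the optimal list (vertical axis, logarithmic) against summit position relative to the TSS (horizontal axis, bp), 1 point per peak, blue for 335 upstream and red for 63 downstream summits. The 8 strongest peaks carry gene names and all lie upstream, between 34 and 478 bp from the TSS.

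By the annotation under the summit, 183 of the 398 (46.0%) were intergenic, 147 (36.9%) lay in an intron, 63 (15.8%) in a 5' UTR, 3 in a 3' UTR of a neighbouring gene and 2 in a coding exon. Of the intronic summits, 127 were in an intron of the gene whose TSS was near, and 107 of these were upstream of that inner start. The intronic summits had a median signal of 114.0, the intergenic ones 96.6 and those in a 5' UTR 90.6. Summits upstream of every annotated start of their gene numbered 206 (51.8%). When the gene had a single annotated start, 131 of 147 peaks (89.1%) lay upstream of it, which gives the side without a choice among starts. With 2 or more starts in reach (71 peaks) the median position was 44 bp upstream, against 143 bp with 1 start in reach (327 peaks). In 26 cases a noncoding gene also started within 500 bp: for 22 the nearest was an ncRNA gene, for 3 a tRNA gene and for 1 a snoRNA gene. The start of the next coding gene was at a median of 2968 bp, with 53 peaks under 1000 bp. All 5 large arms held these peaks, from 67 on X to 93 on 3R, with upstream shares between 82.1% (X) and 86.2% (2R), and chromosome 4 held none.

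The 398 peaks belonged to 373 genes, 2.67% of the 13945 nuclear protein-coding genes. Several start sites were annotated for 61.4% of the genes with a peak and 26.5% of all 13945. Their median lengths were 5970 and 2166 bp, and 24.4% and 43.7% were known by a CG number alone. A gene with more starts has more places for a summit to be near, and the part of this in the difference was not tested. The rule also requires a start without neighbours: 74.8% of all genes had a TSS with no start of another gene within 500 bp, and 3.57% of those genes had a peak.

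The strongest single-gene peak of all was also the strongest nuclear peak in the optimal list. It lay 34 bp upstream of Ugalt, the transporter that carries UDP-galactose into the Golgi, with a signal of 769.9. Its values were 409.6 in the list of replicate 5 and 361.0 in that of replicate 1, where it ranked 1st and 3rd. CG14100 followed with a summit 107 bp upstream and a signal of 722.8, and ranked 4 in replicate 5 and 2 in replicate 1. Next were CG1888 with a signal of 601.3 at 216 bp upstream, and PNPase, the polynucleotide phosphorylase of mitochondria, with 556.0 at 82 bp. Ranks of both were between 4 and 13 in the 2 replicate lists. High ranks in both lists are in part built in, as the optimal signal that chose these peaks comes from the same libraries.

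The other peaks among the 20 strongest stood at genes of many functions. The gene larp, which encodes an mRNA-binding La-related protein, had a signal of 524.3 at 302 bp upstream, and eIF6, which keeps the large ribosomal subunit from joining too early, had 438.3 at 98 bp. mRpL41, of the mitochondrial large ribosomal subunit, had 417.1 at 133 bp. Drat, an alcohol dehydrogenase-related protein, had 462.8 at 61 bp, and this peak holds CACGTG. The Polycomb gene ph-p had 420.8 at 478 bp upstream, and Sox14, an HMG-box factor induced by ecdysone, had 399.1 at 276 bp. The rest ran from CG18549 with 356.6 and Trp1, a protein of secretory translocation, with 339.3, through gish, a casein kinase I of the gamma type, with 321.6, and Ptpmeg2, a tyrosine phosphatase, with 307.7, to MFS10, GstE13, CG13501, Hsp27, Gapdh2 and Rtnl1 between 294.9 and 245.7. Of the 20, 19 had the summit upstream of the nearest TSS, though some of these lay inside the gene, downstream of another of its starts, as at larp and ph-p. In the list of replicate 5 these 20 ranked between 1 and 87, and in that of replicate 1 between 2 and 381, the last being Gapdh2.

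Several peaks stood at 21 of the genes: 18 had 2, 2 had 3 and 1 had 4. Not all are separate regions: the 2 at CG43389 are summits of 1 interval, and at by, lola, mthl5 and Eip75B the 2 intervals overlap. Rtnl1, a reticulon that shapes the endoplasmic reticulum, had 4, with signals of 245.7, 106.7, 97.2 and 75.3, each 161 to 297 bp upstream of one of its starts. Drat had 3, with 462.8, 221.8 and 195.8, and Ptpmeg2 had 3, with 307.7, 112.8 and 98.7, all of them upstream. At ph-p the summits were measured from different starts, and both lay between those starts. The first was 478 bp upstream of an inner start, with 420.8, and the other 485 bp downstream of another start, with 165.1. At larp the second peak, at another start, had a signal of 92.0. Peaks of 1 gene share that gene, so the counts of peaks and of genes are given separately.

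Of the genes of sugar breakdown, a few had peaks, each upstream of the TSS. Of 13 glycolytic genes, 5 had a single-gene promoter peak, 38.5% (17.7 to 64.5%), beside 2.67% of all genes, and none had a peak at a shared promoter only. Gapdh2, glyceraldehyde-3-phosphate dehydrogenase, had a signal of 245.7 at 146 bp upstream, with 193.5 (rank 32) in replicate 5 and 51.4 (rank 381) in replicate 1. Eno, enolase, had 128.4 at 222 bp, with 102.2 (rank 152) in replicate 5 and 22.6 (rank 2188) in replicate 1. Both were thus ranked higher in replicate 5. Hex-A, hexokinase, had 95.5 at 209 bp, with 42.9 (rank 1531) in replicate 5 and no summit within 100 bp in replicate 1. Pgk, phosphoglycerate kinase, had 90.4 at 245 bp and ranked 1083 and 717. Ldh, lactate dehydrogenase, had 80.7 at 186 bp, ranked 373 in replicate 5 and had no match in replicate 1. All 5 summits lay upstream, between 146 and 245 bp. With a reach of 200 bp in place of 500 the share was 15.4%, and with the TSS required inside the peak it was 0%. It was also 15.4% among the optimal peaks of above-median signal, and with the strongest peaks of replicate 1 alone (without replicate 5) it was 23.1%, as it was with the canonical transcript of each gene as the only TSS.

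In the pentose phosphate pathway, 2 of 6 genes had a peak: CG8036, a transketolase, with 219.9 at 216 bp upstream and ranks of 56 and 137 in replicates 5 and 1, and Zw, glucose-6-phosphate dehydrogenase, with 87.6 at 135 bp and ranks of 653 and 1713. Of 14 genes listed as sugar-responsive through Mondo and Mlx in the literature, 2 had one: Zw and cbt, the Kruppel-like factor cabut, with 124.0 at 450 bp upstream. For cbt the order of the libraries was the other way, with a signal of 37.8 (rank 2096) in replicate 5 and 82.6 (rank 130) in replicate 1. In fatty acid and triglyceride synthesis 2 of 18 genes had one, Lpin, the phosphatidate phosphatase lipin, with 153.4 and AcCoAS, acetyl-CoA synthetase, with 81.2. In nutrient signalling, 3 of 24 genes had one, all upstream: Pi3K21B with 216.9 at 14 bp, REPTOR, a bZIP factor held back by TOR, with 192.3 at 134 bp, and foxo, the forkhead factor held back by insulin, with 82.3 at 198 bp. The shares of the pentose phosphate, sugar-responsive, fat synthesis and nutrient signalling lists were 33.3%, 14.3%, 11.1% and 12.5%, beside 2.67% of all genes. Their intervals start at 9.68%, 4.01%, 3.10% and 4.34%. None of the 17 genes of the TCA cycle and pyruvate entry had a single-gene promoter peak, and 3 had one at a shared promoter. Of the 17, 10 had a TSS with no start of another gene within 500 bp.

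At ribosomal protein genes the summits lay close to the TSS. Of 87 cytosolic ribosomal protein genes, 14 had a single-gene promoter peak, 16.1% (9.83 to 25.2%), beside 2.67% of all genes, and 21 others had one at a shared promoter. The median position of the 14 was 8.5 bp upstream, against 124 bp over all 398 peaks, and 10 lay upstream. The strongest were RpL23A with 156.0 at 64 bp upstream, RpL24 with 138.7 at 15 bp and RpL30 with 127.4 at 8 bp. The others ranged in signal from 75.9 at RpS2 to 113.1 at RpL17, and in position from 73 bp upstream at RpL17 to 97 bp downstream at RpL26. RpL37-1, which the list pattern missed and which was seen afterwards, had 74.4 at 6 bp downstream. All 14 had a match in both replicates, and 7 were among the 1117 strongest nuclear peaks of both lists. With a reach of 200 bp in place of 500 the share of the list was 32.2%, and with the TSS inside the peak 33.3%. It was 10.3% both with a reach of 1000 bp and among the optimal peaks of above-median signal. Of 53 translation factor genes, 5 had a peak: eIF6, eEF1gamma with 169.1 at 16 bp upstream, eEF5, the factor that carries hypusine, with 80.8 at 25 bp downstream, and eEF1alpha1 and eIF3c. Of 73 mitochondrial ribosomal protein genes mRpL41 alone had one, with 6 others at shared promoters, and of 88 nuclear genes of the respiratory chain blw alone, the alpha subunit of ATP synthase, with 116.2. The shares of these 73 and 88 genes, 1.37% (0.242 to 7.36%) and 1.14% (0.201 to 6.16%), have intervals that hold the 2.67% of all genes.

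Regulators formed small groups. Of 11 circadian clock genes 3 had a peak, all upstream: sgg, the glycogen synthase kinase 3 of the fly, with 178.5 at 206 bp, Pdp1 with 130.9 at 186 bp and vri, a bZIP repressor, with 75.1 at 199 bp. Of 20 regulators of the ecdysone response, 3 had 4 peaks between them: Sox14, Eip75B, a nuclear receptor, with 87.6 downstream of a TSS and 76.8 at 87 bp upstream, and br, the broad zinc finger factor, with 82.3 at 352 bp upstream and no match in replicate 1. Of 22 Polycomb and trithorax genes ph-p and Trl, which encodes the GAGA factor, had them, Trl with 104.5 at 163 bp downstream and no match in replicate 5. Of 24 heat shock genes 3 had one, Hsp27 with 247.9, Hsp83 with 106.3 and Hsp26 with 86.0, and of 41 developmental signalling genes 4, hpo, the Hippo kinase, with 145.4, cact, the inhibitor of Dorsal, with 136.4, spi, an EGF receptor ligand, with 83.7 and 83.0, and Stat92E. Of 43 genes listed as homeodomain, forkhead and other patterning factors 3 had one: fkh with 189.5, elav, an RNA-binding protein of neurons, with 133.7 and ush with 97.0. Of 60 RNA polymerase and general factor genes 3 had one: Taf4 with 110.2, Polr2F with 95.2 and TfIIA-S with 94.0. Of 120 cytochrome P450 and glutathione S-transferase genes GstE13, GstT4 and GstE12 had one, 2.50% (0.854 to 7.09%), beside 2.67% of all genes. The intervals of the Polycomb and trithorax (2.53 to 27.8%), patterning (2.40 to 18.6%) and polymerase lists (1.71 to 13.7%) also hold 2.67%. Those of the clock, ecdysone, heat shock and developmental signalling lists lie above it.

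In 12 of the 30 lists no gene had a single-gene promoter peak. Some of these lists did hold shared-promoter peaks: tRNA synthetases (0 of 31, 4 shared), proteasome subunits (0 of 37, 4 shared), Mediator subunits (0 of 29, 4 shared), V-ATPase and autophagy genes (0 of 54, 5 shared) and nucleoporins (0 of 21, 3 shared). In these lists, in the same order, only 12, 17, 12, 33 and 8 genes had an isolated TSS, without another gene's start within 500 bp. The rule nearly requires one: 372 of the 373 genes with a peak had it. Others had neither kind: 117 cuticle protein genes, 179 chemoreceptor genes, 27 gut serine proteases and 18 glue protein genes, 6 of the last with an isolated TSS. The upper limits of the intervals for the chemoreceptor and cuticle lists are 2.10% and 3.18%, and the latter lies above the 2.67% of all genes. In the other lists without a member they run from 6.64% (V-ATPase and autophagy) to 27.8% (bHLH-zip network), so those zeros do not set the lists apart from all genes. The remaining 3 were the TCA cycle list, the Rab and Arf GTPases (0 of 41, 1 shared) and the bHLH-zip network (0 of 10, 1 shared). Genes with a CG number alone had a peak in 91 of 6097 cases, 1.49% (1.22 to 1.83%).

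**Figure D3:**
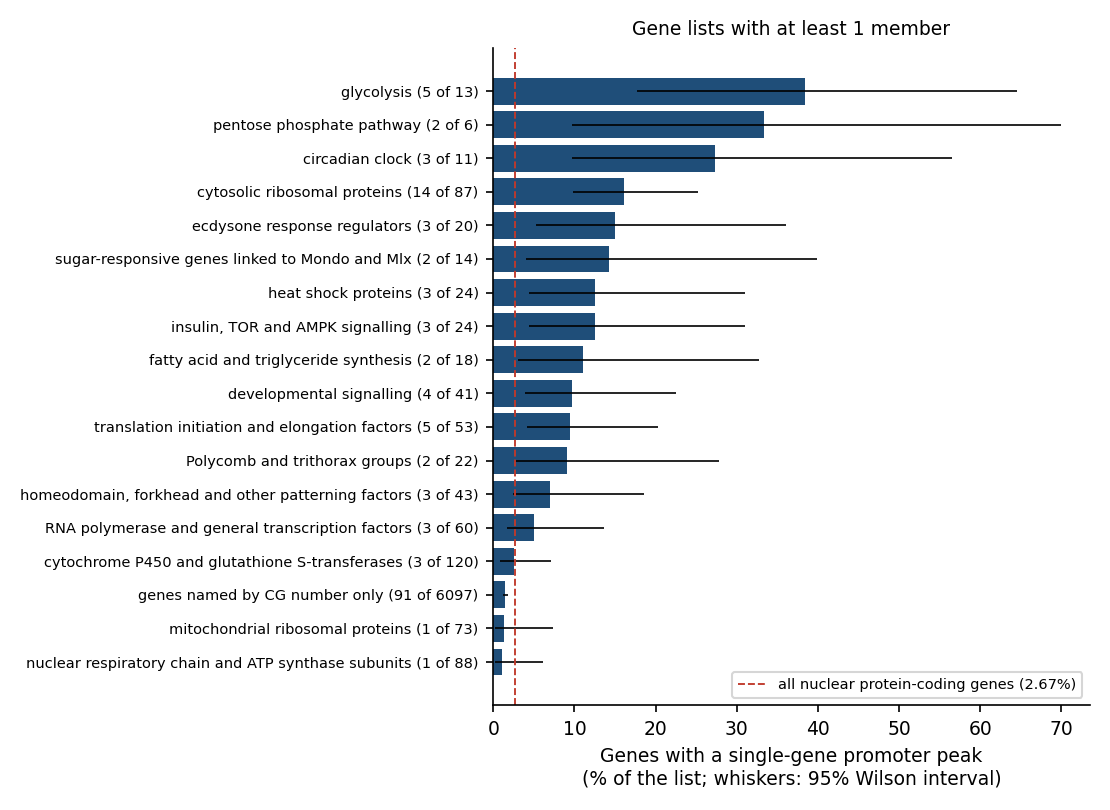
Share of the genes of each list with a single-gene promoter peak (horizontal axis, %, bars from 0) for the 18 lists with at least 1, with 95% Wilson intervals as whiskers and the 2.67% of all nuclear protein-coding genes as a dashed line. The intervals of 11 lists lie above the line, those of glycolysis (5 of 13) and cytosolic ribosomal proteins (14 of 87) among them, and short lists have wide intervals. The lists were chosen with earlier results known.

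Both replicates held most of these peaks, at unequal ranks. A relaxed peak of a replicate was taken as the match when its summit was the nearest and within 100 bp, and 364 of the 398 (91.5%, 88.3 to 93.8%) had a match in both lists, beside 91.8% of all 1117 nuclear optimal peaks. Replicate 5 had a match for 383 and replicate 1 for 379, so 15 had no summit within 100 bp in the first and 19 none in the second. No peak lacked a match in both. Such a peak need not be absent from the list: with any overlap of the peaks as the rule, 98.2% had a match in both. The optimal list was derived from these 2 lists and the pooled one, so a match in both is built in to a large extent. The replicate lists are also long, with 29963 nuclear peaks in replicate 5 and 29988 in replicate 1. A match can therefore be very weak: at melt it had a signal of 9.92 in replicate 5, where the lowest of the list is 9.26. Among the 1117 strongest nuclear peaks of both replicates, as many as the optimal list holds, were 206 (51.8%, 46.9 to 56.6%), beside 50% of all nuclear optimal peaks. Singly the shares were 77.9% in replicate 5 and 68.1% in replicate 1, and the median ranks were 541 and 588. In the 4 classes of optimal signal the share in both was 95%, 69.0%, 35.4% and 7.07% from the strongest down, an order that the choice of classes in part fixes, as the optimal signal comes from the same libraries.

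Across the 364 matched peaks the signals in the 2 lists had a Spearman correlation of 0.364 and a Pearson correlation of 0.466 on the log10 scale, a description across peaks that share both libraries and the control alignment. The values were 0.450 and 0.618 at shared promoters (217 peaks) and 0.342 and 0.472 at distal ones (444 peaks). The summits of the replicates were a median of 28 bp apart, and 260 of the 364 (71.4%) within 50 bp. The rank was higher in replicate 5 for 203 peaks and in replicate 1 for 161. The largest gaps in rank were at melt, a pleckstrin-homology protein of insulin signalling, which ranked 303 in replicate 1 and 27545 in replicate 5, at Pino with 219 and 27059, and at IP3K1, an inositol trisphosphate kinase, with 2627 and 20807. In the other direction, CG15771 ranked 224 in replicate 5 and 25098 in replicate 1, Calr, calreticulin, 307 and 20000, and CG18476, 258 and 16722. These 6 peaks all had optimal signals between 74.2 and 88.4, below the median of 100.3. The choice of these peaks in part fixes this, as the optimal signal comes from the same libraries. Listed genes that also had unequal ranks include vri (568 in replicate 5, 12056 in replicate 1) and Hsp26 (9277 and 1036). The match is the nearest summit and need not be the strongest one nearby. A low rank therefore does not show that the library held no stronger peak there. GstE12 (264 and 6690) and the spi peak with a signal of 83.7 (5432 and 495) are others.

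**Figure D4:**
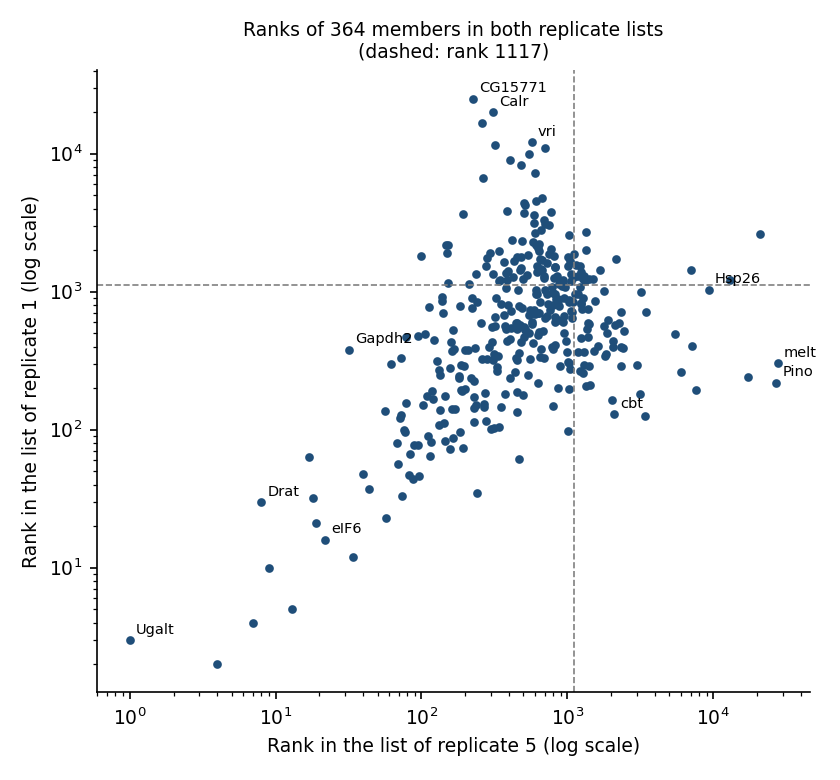
Rank by signal in the list of replicate 1 (vertical axis, logarithmic) against that of replicate 5 (horizontal axis, logarithmic) for the 364 peaks matched in both, with dashed lines at rank 1117. The leading peaks, Ugalt among them, lie in the lower left corner. The points fan out towards peaks whose nearest summits had very unequal ranks, such as melt and CG15771.

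The median signal of the 398 peaks was 100.3 (quartiles 85.5 and 140.3), against 96.4 at shared promoters, 96.9 at distal peaks and 24.5 at the relaxed single-gene peaks. The 101 bp around the summit held 39.0% ± 9.74 G and C (SD over 398 peaks). Windows of the same width centred 124 bp upstream of the 14453 TSSs without another gene's start within 500 bp held 39.4% ± 11.2. Those windows are the promoter background for the words that follow.

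The E-box CACGTG, searched like all words on both strands within 50 bp of the summit, was found at 8 of the 398 peaks, 2.01% (1.02 to 3.92%), beside 1.11% (0.955 to 1.30%) of promoter windows, 0.837% of shared and 1.04% of distal peaks. At relaxed single-gene peaks it was 1.31% (1.04 to 1.63%). Among the single-gene peaks of above-median signal in the optimal list it was 3.38%. The 8 stood at Drat, RpL24, Pdp1, CG45544, sdk, E23, CG31523 and CG4408, with signals from 462.8 at Drat to 73.99 at CG4408. Neither Gapdh2, Eno, Hex-A, Pgk and Ldh nor CG8036, Zw and cbt were among them. All 8 had a match in both replicates, and 7 lay upstream.

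TATCGATA stood at 10 peaks, 2.51% (1.37 to 4.56%), beside 0.969% (0.822 to 1.14%) of promoter windows and 7.53% (4.82 to 11.6%) of shared-promoter peaks. The interval of the single-gene share lies below that of the shared one and above that of the promoter windows. Relaxed single-gene peaks had the word at 2.05% (1.72 to 2.45%), inside the interval of the single-gene share. The excess over the windows is thus not particular to the optimal peaks. The genes were Alg3, CG1827, eEF1gamma, RpS12, Ufc1, Abl, bic, cnc, CG7006 and JIL-1, and their median position was 45 bp upstream. The windows are centred 124 bp upstream, and the part of this in the difference was not tested. The share was 4.67% with a reach of 200 bp, 1.63% with 1000 bp and 5.35% with the TSS inside the peak. GGTCACAC stood at 6 peaks, 1.51% (0.693 to 3.25%), beside 0.567% of windows and 1.55% of relaxed single-gene peaks: RpL30, RpS23, uri, Abl, Dpck and eEF1alpha1. Without replicate 1 the share was 0.955%, and among the optimal peaks of above-median signal 0.966%, while with the TSS inside the peak it was 2.83%. TATAAA was at 15.1% of peaks and 15.3% of windows, GAGAG at 16.1% and 17.6%, and CAGCTG at 5.78% and 4.67%. For CAGCTG the order against the windows turned without replicate 5, with 3.49% of peaks, and among the optimal peaks of above-median signal, with 3.38%.

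ACACTG, which overlaps the end of GGTCACAC by its first 4 letters in the longer form of Motif 1, was at 41 peaks, 10.3% (7.68 to 13.7%), beside 4.49% (4.16 to 4.84%) of windows. It was at 10.04% of shared, 6.67% of distal and 7.29% of relaxed single-gene peaks. Among all 2080 words of 6 bases with strands merged, the one with the largest excess over the promoter windows was ACAGTG, at 49 peaks, 12.3% (9.44 to 15.9%) against 4.41%. It was at 11.7% of shared, 11.5% of distal and 6.04% of relaxed single-gene peaks as well. One or the other, which share the letters CACTG on one strand, stood at 77 peaks (19.3%), with a median position of 64 bp upstream. Next in excess was ATTTAA, at 28.1% against 20.7%, and further words that overlap ACACTG were CAACAC, at 10.3% against 5.00%, and AACACT, at 10.8% against 5.89%. At the other end, AAAGTT was at 8.54% against 12.03% and CGCCGA at 0.503% against 3.83%. The 2080 words were ranked on these same peaks, so their order is a description, and a word found is not a bound site.

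At the starts themselves, the 391 TSSs nearest to these summits had TATAAA on the coding strand 40 to 20 bp upstream in 2.81% (1.58 to 4.97%) of cases, against 7.02% (6.62 to 7.45%) of the 14453 isolated TSSs. TCAGT, the common initiator form, lay within 8 bp of 17.4% (13.96 to 21.5%) against 13.8% (13.2 to 14.3%). CACGTG within 200 bp upstream was at 3.32% (1.95 to 5.605%) against 2.12% (1.90 to 2.37%), TATCGATA there at 5.63% (3.74 to 8.37%) against 4.26% (3.94 to 4.60%), and GGTCACAC from 100 bp upstream to 50 bp downstream at 2.81% (1.58 to 4.97%) against 3.67% (3.37 to 3.99%). Of these 5 words, the intervals overlap for those 3 and for TCAGT, and for TATAAA they do not.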

How the data were processed

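ChIP-seq peak lists of 2 biological replicates, numbered 5 and 1, were used as deposited in the dm6 build. The relaxed list of each replicate was called on its own alignment and 1 control alignment that both share, the pooled list on both alignments, and the optimal list was derived from these by irreproducible discovery rate, per the labels and the accompanying text files. No source used here gives the aligner, caller, threshold or read depth. The signal of each peak and the summit offset in bp are the authors' deposited values, and the signal's scale is not stated. The control alignment and the dm3 lists were not used here.

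Mitochondrial peaks were removed, and the summit was set against TSSs of protein-coding transcripts in the Ensembl release 115 annotation (BDGP 6.54) with Python 3.11.15, numpy 2.4.6 and pandas 2.3.3. The side is that of the nearest TSS, and nearest relaxed summits within 100 bp were matches. Shares have 95% Wilson intervals. No significance test was made: there is 1 group, and peaks or genes are not replicates. Counting was tested on simulated data. Words were read from the RefSeq Release 6 genome, whose arms hold every peak.

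The peaks, the 30 gene lists (9 symbols matched no gene) and the words were chosen with earlier results of these data known, and ACAGTG and the other words of 6 bases were ranked afterwards. Named genes are those of the 20 strongest peaks, up to 3 of each list, the 3 with the largest rank gap each way, the 3 nearest the 500 bp limit on either side of it, those with CACGTG and those with several peaks. Genes listed for TATCGATA, GGTCACAC and further list members were named after their values were seen. Alternatives were other reaches, TSS sets, peak lists, matching rules, word windows and single replicates.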

Additional observations from a re-analysis of the deposited data

How the results depend on the processing

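Of 155 values recomputed under alternatives, 112 stayed within the interval of the main value (for the number of peaks, which has no interval, within 1.5 times) and 43 did not. The upstream share lay between 77.2% and 88.4% over its 9 alternatives, the lower with a reach of 1000 bp and the upper among the optimal peaks of above-median signal, which hold 207 single-gene peaks. Median distance followed the reach: 85 bp at 200 bp, 194 bp at 1000 bp and 70.5 bp with the TSS inside the peak. The share matched in both replicates was 68.3% for summits within 50 bp, 98.0% within 250 bp, 98.2% for any overlap and 95.7% above the median signal. With the strongest peaks of a single replicate in place of the optimal list it was 77.8 to 88.7%, the lower without replicate 1, and the median signal, on the scale of that replicate's list, 44.5 to 62.5. The share among the strongest of both was 46.7% at 200 bp, 43.1% with the TSS inside, 39.7% within 50 bp and 81.6% above the median signal, and the median signal was 95.5, 92.5 and 137.6 at 200 bp, with the TSS inside and above the median signal. TATCGATA was at 4.67% (200 bp) and 5.35% (TSS inside), and at 1.01% and 5.03% in windows of 25 and 100 bp; GGTCACAC was at 0.503% in 25 bp, and CACGTG at 1.01% and 4.02%. The ribosomal protein share was 32.2% at 200 bp and 33.3% with the TSS inside. Wider windows hold more words by construction. Likewise a shorter reach caps the distance, a wider match limit cannot lower the matched share, and peaks chosen for signal have a higher median signal. Peaks taken from the list of 1 replicate match themselves in that list. The cause of the other shifts was not tested. No paired analysis was possible because there is 1 group. Read depth is unknown, so no limit of detection is given.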
